A study of Homo sapiens with 6 samples.

Results

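The histone genes measured here were the rows of an RNA-seq gene table whose symbol names a histone, of the replication-dependent clusters (symbols that begin with HIST) or of the variant genes (H1F0, H1FX and the H2AF and H3F3 symbols). Of 19792 genes in the table, 72 carried such a symbol. The pseudogenes H3F3AP4 and HIST2H2BC and the antisense RNA H1FX-AS1 were left out, so that 69 histone genes remained, 59 cluster genes and 10 variant genes. RNA came from BT-549 cells, a human triple-negative breast cancer line, that carried a doxycycline (DOX)-inducible shRNA against WDR5, a shared subunit of the COMPASS histone H3 lysine 4 methyltransferases. The 3 vehicle cultures received 0.1% DMSO and the 3 DOX cultures 500 ng/ml doxycycline, for 7 days by the study's methods. All 6 libraries were of the one engineered line, and the labels list neither a control shRNA nor DOX-treated cells without the shRNA.

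The quantity reported for each gene was the authors' mean normalized count, a single value over all 6 libraries with vehicle and DOX together. No value of a single library was analysed here. The spread between cultures, the depth of each library and the silencing of WDR5 were therefore not assessed. Each level is a mean over vehicle and DOX cultures, and shows neither the level of either group nor the response to DOX. Levels of single genes were ordered per length, as the mean normalized count per kilobase of the longest coding transcript, and the value with the shortest coding transcript is given where it differs by over 1.5 times for a gene described. Shares of a sum are given on the count scale, the per-kilobase scale or both, as named. Genes whose mean normalized count was 10 or more were counted as detected. All 6 mesenchymal genes examined were detected, from CDH2 at 1019 to VIM at 22183 per kilobase. The hormone receptor genes ESR1 and PGR had mean normalized counts of 0.790 and 0.801, and the epithelial gene EPCAM had 1.30. The other 5 receptor and epithelial genes were detected, with mean normalized counts of 1221 for ERBB2, 435 for KRT18, 59.6 for CDH1, 57.3 for KRT8 and 17.7 for KRT19. Of 4 leukocyte, endothelial and liver genes in the table, 1 was detected, PTPRC with a mean normalized count of 44.7 (8.34 per kilobase).

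Histones package DNA into nucleosomes, with an octamer core of H2A, H2B, H3 and H4 and a linker histone, H1, on the DNA between cores. Cluster genes are transcribed in S phase to wrap newly made DNA, and their mRNAs usually end in a conserved stem-loop in place of a poly(A) tail. Stem-loop binding protein (SLBP) holds that stem-loop during processing and translation, whereas most variant genes are expressed throughout the cell cycle and make polyadenylated mRNAs. The libraries were prepared with an mRNA kit of the TruSeq Stranded type, which selects RNA by its poly(A) tail. How abundant a stem-loop mRNA was in the cells and how well it was captured therefore cannot be told apart in these values. Likewise, fewer cells in S phase and less histone RNA per cell cannot be told apart.

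Because the 3' end sets these classes of histone mRNA apart, the stem-loops were read from GENCODE 44 transcripts on GRCh38. The search was for a stem of 6 fully paired bases that opens with GG and closes with CC, around a loop of 4 bases that opens with TT, on the transcript strand. Of 69 histone genes, 55 held such a stem-loop, all in the 3' UTR. Over all 19676 protein-coding genes, these 55 included, 161 (0.818%) held one anywhere in a transcript. The 55 genes used only 6 different stem-loops, and 1 example of each is printed from 5′ to 3′ with the stem-loop in capitals and up to 5 flanking bases on each side.

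HIST2H2BE: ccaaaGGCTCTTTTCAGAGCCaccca
HIST1H2BK: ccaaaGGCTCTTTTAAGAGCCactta
HIST2H2AC: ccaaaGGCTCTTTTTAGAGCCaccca
HIST1H4H: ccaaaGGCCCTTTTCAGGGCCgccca
HIST1H4K: caaaaGGCCCTTTTTAGGGCCccca
H2AFX: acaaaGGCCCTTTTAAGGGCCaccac

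In these lines the capitals lie at chr1:149886188-149886203 on the minus strand for HIST2H2BE, chr6:27146366-27146381 on the minus strand for HIST1H2BK and chr1:149887391-149887406 on the plus strand for HIST2H2AC. They lie at chr6:26285131-26285146 for HIST1H4H, chr6:27831178-27831193 for HIST1H4K and chr11:119094898-119094913 for H2AFX, all on the minus strand. The form of HIST2H2BE was the most common, in 34 genes of the H1, H2A, H2B and H3 families, and the form of HIST1H2BK was in 9. The form of HIST1H4H was in 8 genes, all H4, and that of HIST1H4K in 2, also H4. H4 genes thus used a stem with GGCCC where the other cluster families used GGCTC. HIST2H2AC and H2AFX each held a form found in no other histone gene of the set. H2AFX, which encodes the variant phosphorylated at DNA breaks, was the only variant gene with a stem-loop, and 821 bases of its transcript followed it. In HIST2H2BE, 1729 bases followed the stem-loop, whereas in HIST1H2BK it lay 5 bases from the annotated end.

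The variant genes held most of the normalized count of the histone genes. Of 69 histone genes, 30 (43.5%) were detected, against 68.5% of all rows of the table, and they comprised 9 of 10 variant genes and 21 of 59 cluster genes. The median level of the 9 variant genes was 2116 per kilobase and that of the 21 cluster genes 48.5, beside 195 for all detected genes. With the shortest coding transcript these medians were 4292 and 54.8. Over all 59 cluster genes the median with the longest was 8.11. The variant genes held 87.9% of the summed level per kilobase of the 30 genes, and 94.9% of their summed mean normalized count. The 30 genes together made up 0.225% of the summed mean normalized count of the table. No test was made of these differences, since each gene has 1 pooled value and genes are not replicates.

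**Figure D1:**
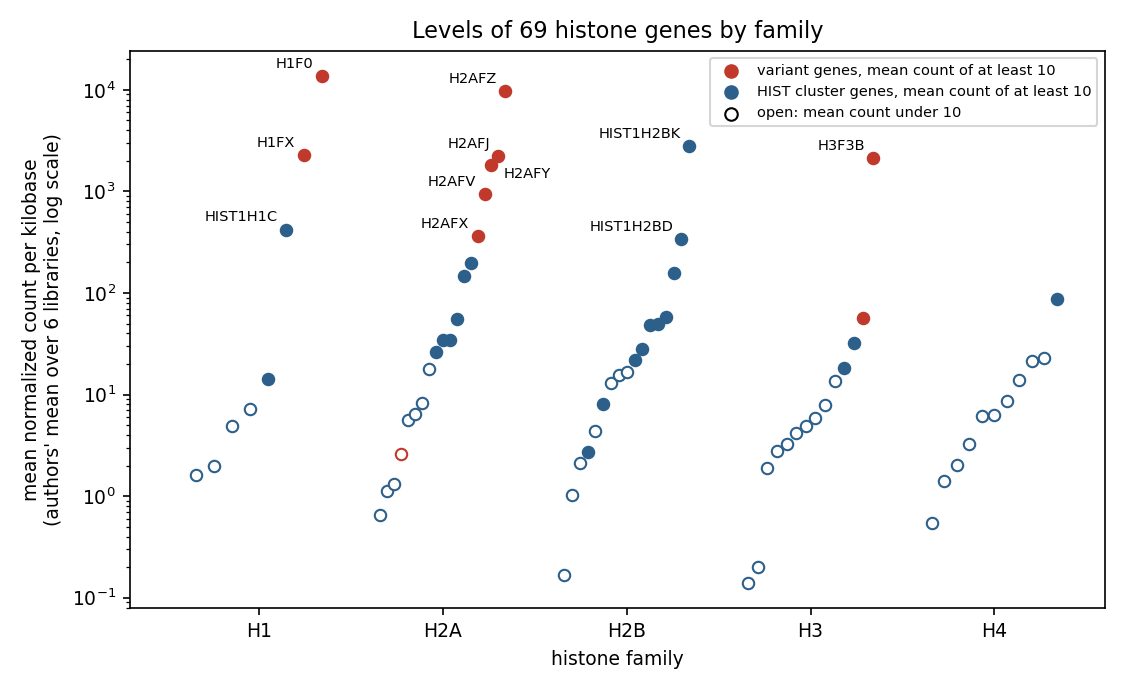
Level of each of the 69 histone genes, as mean normalized count per kilobase of the longest coding transcript on a log scale, by family. Each point is 1 gene, red for variant and blue for cluster genes, open where the mean normalized count was under 10; variant genes stand at the top of H1, H2A and H3, from H1F0 at 13655, while HIST1H2BK leads H2B at 2775 and all H4 genes are cluster genes.

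Among the linker histones, H1F0, the replacement H1 typical of differentiated and slowly dividing cells, stood highest of all 69. Its level was 13655 per kilobase, at percentile 99.5 of all detected genes, and its mean normalized count of 30096 was 50.3% of the sum over the 30 histone genes. Its share of the summed level was 36.3% per kilobase of the longest coding transcripts and 23.4% per kilobase of the shortest. H1FX, the other variant linker histone, was at 2265 per kilobase and percentile 94.7. The 6 cluster H1 genes lay far lower. HIST1H1C, which encodes H1.2, led them at 420 per kilobase, from a mean normalized count of 307. HIST1H1E, which encodes H1.4, followed at 14.1 per kilobase, and HIST1H1B, HIST1H1D and the testis gene HIST1H1T were under the minimum with mean normalized counts of 5.80, 3.84 and 1.43. H1F0 therefore stood above HIST1H1C by more than an order of magnitude on the per-kilobase scale.

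Of the H2A variants, H2AFZ was the highest, at 9671 per kilobase and percentile 99.2. It encodes H2A.Z, the variant of promoter nucleosomes, and its close relative H2AFV was at 944 per kilobase. That gap rests on the 3804-base transcript of H2AFV, since with the shortest coding transcripts H2AFZ was at 9693 and H2AFV at 8178. H2AFJ was at 2227 per kilobase, and H2AFY, which encodes macroH2A1 with its large additional domain, at 1811, or 4292 with its shortest coding transcript. H2AFX was the lowest of those above the minimum, at 363 per kilobase and percentile 65.4. The second macroH2A gene, H2AFY2, had a mean normalized count of 5.30 and was the only variant gene under 10. The 2 macroH2A genes thus lay on opposite sides of the minimum.

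HIST1H2AC led the cluster H2A genes at 199 per kilobase, followed by HIST3H2A at 146. HIST1H2AC lay below H2AFX at 363 on this scale and above it, at 560, with the shortest coding transcript, where HIST3H2A was at 256. HIST1H2AG was at 54.8 per kilobase, HIST2H2AC at 34.2 and HIST1H2AE at 34.1, the last pair being nearly equal. In all, 6 of 13 cluster H2A genes reached a mean normalized count of 10, and the other 7 lay between 0.345 and 8.85.

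H2B had no variant gene in the set, and its cluster genes were the most readily detected, with 10 of 17 at the minimum. HIST1H2BK stood apart at 2775 per kilobase and percentile 95.8, above H1FX and H2AFJ with either the longest or the shortest coding transcript. Its mean normalized count of 1374 was 44.7% of the sum over the 21 cluster genes, and its share of their summed level per kilobase was 60.9%. GENCODE lists 1 transcript of 495 bases for HIST1H2BK, whereas RefSeq lists a gene of 8566 bases at chr6:27138293-27146858, so its level per kilobase rests on the short model. Of its 50-base windows 57.2%, and of its 100-base windows 22.5%, occur also in a transcript of another gene, and how the authors' counting treated such reads is not given in the sources used here. HIST1H2BD followed at 341 per kilobase, or 554 with its shortest coding transcript, and HIST2H2BE at 157. HIST1H2BC was at 57.5. HIST1H2BJ was at 49.5, or 115 with its shortest. H2B genes together held 71.1% of the summed mean normalized count of the 21 cluster genes, and 76.6% of their summed level per kilobase.

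For H3, the replacement gene H3F3B, which encodes H3.3, was at 2116 per kilobase and percentile 94.2, or 12229 with its shortest coding transcript. H3F3C, a retrogene of the H3.3 family, was at 56.2 per kilobase, and 20.7% of its 50-base windows but 1.58% of its 100-base windows occur in another gene's transcript. The H3 levels and shares cover these variant genes and the cluster genes. H3F3A, another H3.3 gene, was not among the rows with a histone symbol and so is missing from them. The left-out pseudogene H3F3AP4 had a mean normalized count of 1549, with 100% of its 50-base windows in another gene's transcript. Only 2 of 12 cluster H3 genes reached the minimum. HIST1H3D was at 32.3 per kilobase, although 96.5% of its 50-base windows occur in another gene's transcript, and HIST1H3H was at 18.4. Their order turned with the shortest coding transcripts, at 32.3 and 47.4. HIST1H3C, HIST1H3B and HIST1H3J had mean normalized counts of 6.59, 4.03 and 3.02.

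H4 was the least detected family, with 1 of 11 genes at the minimum and no variant gene in the set. HIST1H4H was at 87.8 per kilobase, from a mean normalized count of 35.9. HIST1H4C, HIST1H4K, HIST1H4E and HIST1H4A had mean normalized counts of 9.25, 8.24, 5.70 and 3.48. H4 genes held 0.233% of the summed level per kilobase of the 30 genes, against 43.4% for H1, 41.2% for H2A, 9.27% for H2B and 5.90% for H3, although a nucleosome holds as much H4 as H3. Among the 21 cluster genes alone, H4 held 1.93% of the summed level per kilobase and H3 held 1.11%. By mean normalized count these shares were 1.17% and 1.28%. The genes nearest to the minimum were HIST1H1E at 11.1 and HIST1H2AM at 12.7 inside it, and HIST1H4C at 9.25 and HIST1H2AI at 8.85 outside it.

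**Figure D2:**
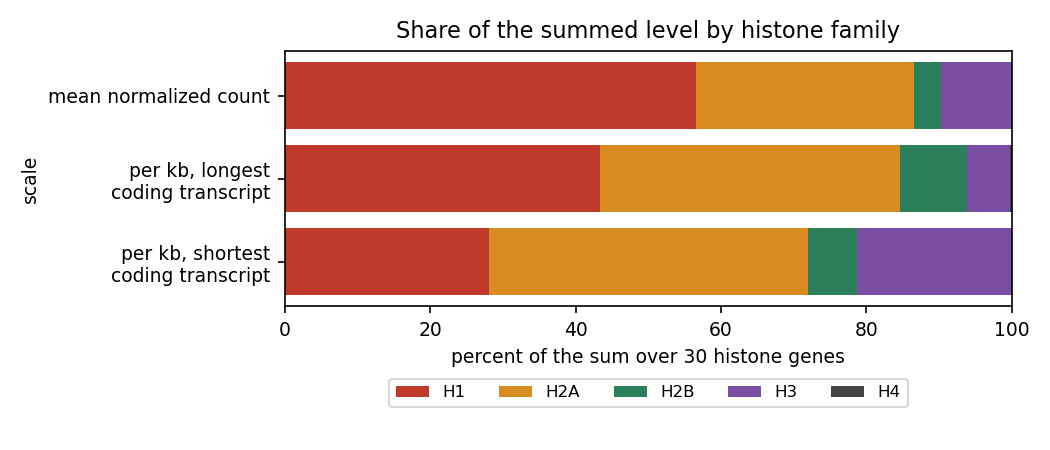
Percent of the summed level of the 30 histone genes held by each family, on 3 scales (bars, from 0 to 100%). H1 holds 56.6% of the mean normalized count but 28.0% per kilobase of the shortest coding transcript, where H3 rises from 9.74% to 21.2%, and H4, at 0.233% or less on every scale, is too thin to see.

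Whether the detected cluster genes were those with an alternative, polyadenylated end was examined from the annotation. A poly(A) signal end was taken as a GENCODE transcript with AATAAA or ATTAAA in its last 40 bases and no stem-loop in its last 30. All 10 variant genes had such a transcript, as did 14 of 59 cluster genes. Of these 14 cluster genes, 11 (78.6%) reached a mean normalized count of 10, with a median of 35.7 per kilobase over the 14. Of the other 45, 10 (22.2%) did, with a median of 6.38. Per kilobase of the shortest coding transcript, the medians were 72.2 and 6.38. Among the 11 were HIST2H2BE, HIST1H2AC, HIST1H2BD and HIST3H2A, all above 100 per kilobase. The exceptions ran both ways, since HIST1H3E, HIST1H2BE and HIST2H3PS2 had such a transcript and mean normalized counts of 0.542, 0.437 and 0.370, while HIST1H2BK and HIST1H1C had none in GENCODE. Without HIST1H2BK, 9 of 44 genes (20.5%) of the second class reached the minimum, with a median of 6.34. When genes with a RefSeq span over 1000 bases were added to the first class, HIST1H2BK and HIST1H3D, both above the minimum, moved into it. Then 13 of 16 genes (81.2%) reached the minimum, against 8 of 43 (18.6%). The annotation itself was partly drawn from RNA of other cells, and which ends these cells used was not measured.

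**Figure D3:**
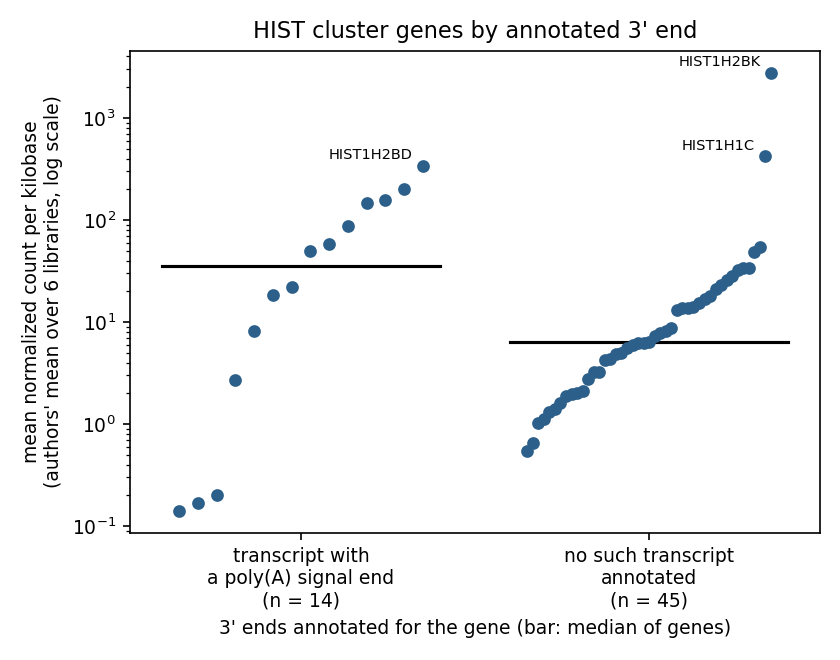
Level of each of the 59 cluster genes (1 point each, mean normalized count per kilobase on a log scale) by whether an annotated transcript ends with a poly(A) signal, with the median as a bar. The medians are 35.7 for 14 genes with such a transcript and 6.38 for 45 without, and HIST1H2BK at 2775 stands above all genes of both classes.

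Detection also differed along the genome. Of 29 histone genes at chr6:26017032-26285534, 10 reached the minimum, led by HIST1H1C at 420 per kilobase of the longest coding transcript. With the shortest, HIST1H2AC at 560 and HIST1H2BD at 554 were above HIST1H1C. Of 5 genes at chr6:27132316-27147562, 3 did, led by HIST1H2BK. Of 16 genes at chr6:27807479-27893891, 3 did, and the highest of them per kilobase of the longest coding transcript was HIST1H2AM at 26.1. With the shortest, HIST1H2BN at 61.9 and HIST1H3H at 47.4 were above HIST1H2AM, still at 26.1. By mean normalized count HIST1H2AM was the lowest of the 3, at 12.7 against 33.5 for HIST1H2BN and 23.0 for HIST1H3H. Most windows of HIST1H2AM occur also in a transcript of another gene, 67.8% of the shorter windows and 63.7% of the longer. On chromosome 1, 3 of 5 genes at chr1:149782689-149887965 and both genes at chr1:228457364-228458558 reached the minimum.

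Many cluster genes are arranged as divergent H2A and H2B pairs that share the DNA between their starts. In the set, 11 pairs had starts within 500 bases of each other, 10 of them an H2A with an H2B gene. The pair HIST1H2BK and HIST1H2AH was the most unequal. Their starts lay 248 bases apart, yet HIST1H2BK was at 2775 per kilobase and HIST1H2AH at 1.12, from a mean normalized count of 0.513. HIST2H2BE was at 157 per kilobase beside 34.2 for HIST2H2AC. In the pair of HIST1H2BC and HIST1H2AC the H2A gene was the higher, with 199 against 57.5. HIST1H2BG and HIST1H2AE were close to each other, at 28.1 and 34.1 with either transcript. HIST1H2BJ and HIST1H2AG were at 49.5 and 54.8, but at 115 and 54.8 with the shortest coding transcripts. HIST3H2A was at 146 per kilobase and HIST3H2BB at 2.70, a gap widened by the 5002-base transcript of HIST3H2BB. With the shortest transcripts the levels were 256 and 29.6, still apart, and the mean normalized counts were 131 and 13.5. H2A was the higher gene in 8 of the 10 pairs by the longest coding transcript and in 6 by the shortest. The 2 pairs that changed order were HIST1H2BJ with HIST1H2AG and HIST1H2AK with HIST1H2BN. HIST1H2AK and HIST1H2BN were at 8.18 and 8.11 per kilobase, but at 8.18 and 61.9 with the shortest coding transcripts. Their mean normalized counts were 4.06 and 33.5, so the near tie rests on the 4137-base transcript of HIST1H2BN. The order within these 2 pairs, and within pairs of similar levels, is therefore not firm. Both genes were detected in only 5 of the 11 pairs.

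**Figure D4:**
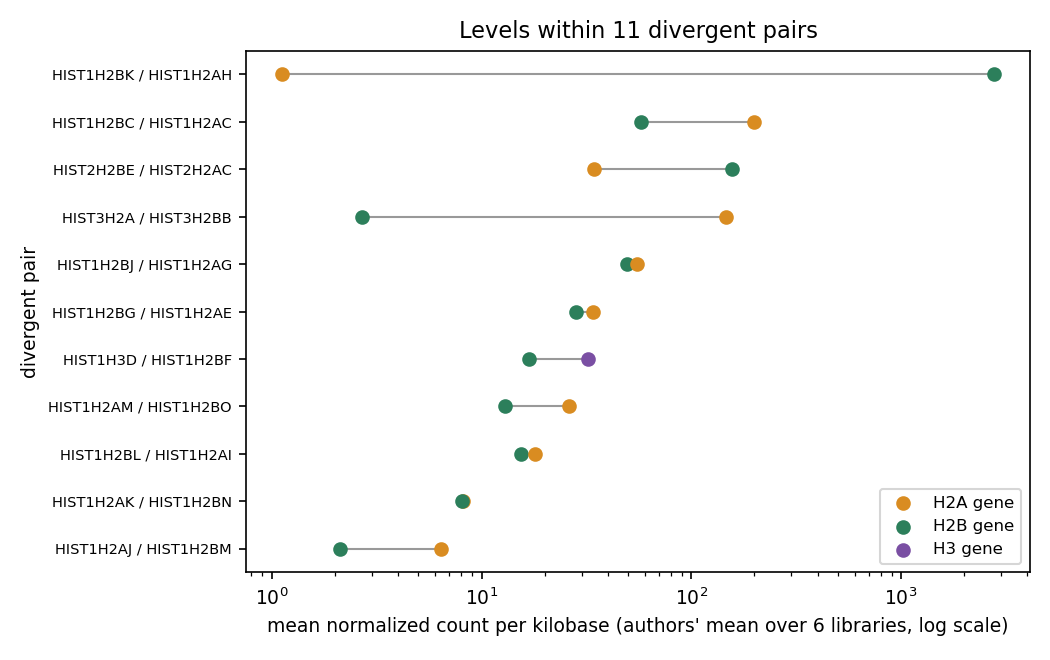
Levels of the 2 genes of each of 11 divergent pairs, as mean normalized count per kilobase on a log scale, joined by a line and colored by family. HIST1H2BK at 2775 and HIST1H2AH at 1.12 are farthest apart, and HIST1H2BG and HIST1H2AE lie near each other at 28.1 and 34.1. With the shortest coding transcripts, not plotted, 2 of the 11 pairs change order. Both genes were detected in 5 of the 11 pairs.

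Since the genes of one pair can share a promoter and differ in level, the windows upstream were examined for short motifs. RefSeq windows on GRCh38.p14, from 250 bases before the start to 50 after it, matched 62 of the 69 histone genes, including 28 of the 30 above the minimum. The motifs were CCAAT, bound by the factor NF-Y, the TATA box TATAAA, the octamer ATTTGCAT of H2B promoters bound by OCT1, and GGTCC, found in the H4 subtype element. Each was searched on both strands, and overlapping matches of different motifs were each counted. A gene counted as holding a motif if any of its listed windows held it, and 5 of the histone genes had more than 1 window. Windows of a divergent pair overlap and so are not independent. CCAAT was in 20 of 21 cluster genes above the minimum (95.2%), against 39.7% of all 27305 genes with a window. It was in all 17 H2B, 12 H2A, 10 H3 and 6 H1 cluster genes with a window, but in 2 of 9 H4 genes. TATAAA was in 14 of the 21 (66.7%) against 14.0% of all genes. Among these, the first listed windows of HIST1H2BC and HIST1H2AE held it only on the other strand, and that of HIST1H3D did not hold it. The octamer was in 13 of 17 H2B and 9 of 12 H2A genes, in 1 of 10 H3 genes and in none of 9 H4 or 6 H1 genes, against 2.19% of all genes. GGTCC was in 9 of 9 H4 genes and 1 of 12 H2A genes, against 50.6% of all genes. By the exact Clopper-Pearson method the 95% interval of the octamer share in H2B was 50.1 to 93.2%, and for the counts of 0 the upper bounds were 33.6% in H4 and 45.9% in H1, which cover counting error only.

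The windows of the highest cluster gene, of an H2B gene with a long poly(A) form, of the only H4 gene above the minimum and of the highest H2A variant are shown, with every match of a motif on either strand in capitals.

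HIST1H2BK: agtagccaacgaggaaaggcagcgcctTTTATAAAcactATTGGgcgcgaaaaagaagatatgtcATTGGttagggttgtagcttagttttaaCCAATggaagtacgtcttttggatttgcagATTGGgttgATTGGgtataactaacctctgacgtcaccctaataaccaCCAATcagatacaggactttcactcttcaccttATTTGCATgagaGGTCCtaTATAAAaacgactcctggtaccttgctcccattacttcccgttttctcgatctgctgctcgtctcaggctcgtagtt
HIST2H2BE: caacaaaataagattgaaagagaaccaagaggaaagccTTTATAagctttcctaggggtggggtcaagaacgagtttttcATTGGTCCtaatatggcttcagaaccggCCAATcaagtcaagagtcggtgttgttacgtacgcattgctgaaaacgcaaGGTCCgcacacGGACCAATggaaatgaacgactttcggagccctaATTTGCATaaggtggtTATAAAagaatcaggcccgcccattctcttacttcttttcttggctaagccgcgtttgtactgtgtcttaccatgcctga
HIST1H4H: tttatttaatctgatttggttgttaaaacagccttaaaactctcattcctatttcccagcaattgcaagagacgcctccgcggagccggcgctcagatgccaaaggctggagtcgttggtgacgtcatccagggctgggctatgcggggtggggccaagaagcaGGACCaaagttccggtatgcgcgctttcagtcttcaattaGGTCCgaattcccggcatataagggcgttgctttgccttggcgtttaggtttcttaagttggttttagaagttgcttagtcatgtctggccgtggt
H2AFZ: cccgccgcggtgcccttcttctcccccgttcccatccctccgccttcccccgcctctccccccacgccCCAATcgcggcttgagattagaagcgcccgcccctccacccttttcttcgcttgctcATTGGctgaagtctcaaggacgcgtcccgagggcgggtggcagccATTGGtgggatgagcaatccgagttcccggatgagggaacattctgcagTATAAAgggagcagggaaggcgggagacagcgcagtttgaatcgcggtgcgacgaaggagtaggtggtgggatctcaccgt

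These are chr6:27146809-27147108 for HIST1H2BK (the first of its listed windows), chr1:149886633-149886932 for HIST2H2BE, chr6:26285485-26285784 for HIST1H4H and chr4:99950226-99950525 for H2AFZ, all printed on the minus strand. HIST1H2BK held 6 CCAAT matches over both strands, 2 as printed and 4 on the other strand, with the octamer and TATAAA in sequence near its start. HIST2H2BE held the same motifs, with 3 matches of GGTCC against 1 in HIST1H2BK. HIST1H4H held neither CCAAT nor TATAAA and 1 GGTCC match on each strand. H2AFZ, a variant gene, held 3 CCAAT matches and a TATAAA. Of the 7 variant genes above the minimum with a window, 6 (85.7%) held CCAAT and 4 (57.1%) held TATAAA. The first listed window of H2AFY held no CCAAT, and this gene was counted through another window. A match is a description of the letters and not evidence that a factor was bound in these cells.

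The genes that make and handle histones were detected throughout the lists examined. All 18 genes for histone mRNA processing and transcription were above the minimum, with a median of 388 per kilobase, from LSM11 at 40.8 to SNRPB at 3739. LSM11 is a subunit of the U7 particle that cuts histone pre-mRNA, and SNRPB is a core protein of spliceosomal particles. SLBP was at 1202 per kilobase and NPAT, the S phase coactivator of cluster genes, at 222. All 24 histone chaperone and exchange genes were above the minimum, with a median of 917 per kilobase, from UBN2 at 46.1 to NPM1 at 17358. The 13 S phase genes had a median of 1255 per kilobase, from CCNE1 at 122 to PCNA at 2634. CENPA, the H3 variant of centromeres, was at 521 per kilobase, between H3F3C and H3F3B. The median cluster gene above the minimum, at 48.5 per kilobase, thus lay below every S phase gene examined.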

How the data were processed

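RNA-seq libraries of BT-549/tet-WDR5shRNA cells (3 vehicle and 3 DOX) were aligned by the authors to GRCh38 with STAR and normalized with DESeq2. Versions of these tools are not given in the sources used here. Groups came from the sample labels. The deposited table holds 1 signal value per gene, the authors' mean normalized count over all 6 libraries, and 5 columns of the authors' own DOX comparison (fold change, error, statistic, p-value, adjusted p-value), which were not used. A count test had been planned for the case of single-library counts and was not made, because the table holds no such column. Per-library depth is unknown, so no interval is given for a level.

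Symbols were matched to RefSeq (69 of 69 genes), lengths and 3' ends to GENCODE 44, promoters to RefSeq on GRCh38.p14. Genes were described from a mean normalized count of 10 upward. Named were all variant genes above it, the highest 5 cluster genes of each family, the genes nearest to it and the extremes of each list. Genes named for 3' ends, pairs and shared windows were chosen after their values were seen, as were those searches. Members and lists were chosen with earlier results of these data known. A window of 50 or 100 bases was shared if a transcript of another gene held it. TUT7, entered under a current and an older symbol (ZCCHC6), was counted once. Motif and stem-loop searches were tested on simulated data. Python 3.11.15, pandas 2.3.3, numpy 2.4.6, scipy 1.17.1 and matplotlib 3.10.9 were used. Protein sequences were not used here.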

Additional observations from a re-analysis of the deposited data

How the results depend on the processing

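The share of the summed mean normalized count held by variant genes was 94.9%, and it was 94.7% with no minimum, 95.4% with a minimum of 50, 87.9% per kilobase of the longest coding transcript and 89.7% without H1F0. It was 90.6% per kilobase of the shortest coding transcript, an alternative chosen after seeing the data. The number of genes described was 30, against 69 with no minimum and 15 with a minimum of 50. With no minimum, H1 held 56.5%, H2A 29.9%, H2B 3.68%, H3 9.76% and H4 0.118%. With a minimum of 50, H1 held 56.9%, H2B 3.35%, H3 9.73% and H4 0%, since no H4 gene reached it. The shares with CCAAT and TATAAA were 95.2% and 66.7% with only the bases before the start, and 87.0% and 68.5% over all cluster genes with a window.

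No paired analysis was possible because the value used is 1 mean over all libraries and carries no replicate number. For the same reason the DOX comparison, with its alternatives of another scaling, no filter, leaving out each replicate and a replicate block, was not run. With no values of single libraries, neither the replicate error nor the depth behind a level is known, and low counts are the least certain.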

Other observations

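Among the rows left out, the pseudogene H3F3AP4 had a mean normalized count of 1549, and 100% of its 50-base windows occur in a transcript of another gene. HIST2H2BC had 19.6, also with 100% of its windows shared. H1FX-AS1 had 49.0, with 2.55% of its windows shared.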
